A study of Homo sapiens with 6 samples.

Results

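Interferon signalling was examined as a set of 49 named genes among the 60671 gene rows of each count table. The members are listed by symbol, and every symbol matched 1 Ensembl gene ID. It holds 18 genes that sense or relay the signal (4 receptor chains, 2 kinases, 7 transcription factors and 5 sensors and adaptors) and 31 genes whose transcription interferons are known to raise. The cells were K562, an established chronic myeloid leukemia line, as 1 clone in which doxycycline switches on Lamin B1 joined to M.CviPI, an enzyme that methylates GpC sites (Flag-NLS-M.CviPI-Lamin-B1). The 3 control libraries came from cells kept for 72 hours in 0.1% DMSO, and the 3 EZH2i libraries from cells kept for 72 hours in 1 µM GSK343, an inhibitor of the H3K27 methyltransferase EZH2. Doxycycline at 1 µg/mL was present in both groups for the last 24 hours, so neither group represents unmodified K562, and no library was treated with interferon. Each library was a separate culture of the same clone.

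Type I interferons bind the IFNAR1 and IFNAR2 receptor chains, and type II interferon binds IFNGR1 and IFNGR2. At the type I receptor the kinases TYK2 and JAK1 then phosphorylate STAT proteins, and JAK1 also serves the type II receptor. With IRF9, STAT2 forms part of the complex that binds the interferon-stimulated response element (ISRE) in promoters of antiviral genes, whereas type II interferon acts through STAT dimers at the shorter GAS element. Cells make interferon when sensors such as cGAS, MDA5 (gene *IFIH1*) or TLR3 detect foreign or misplaced nucleic acid and pass the signal through STING or MAVS to IRF3 and IRF7.

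The libraries held between 6327544 and 8987768 reads on genes, 46139822 in all. Levels are given in CPM, the counts scaled to library size after TMM adjustment. The libraries were read near the 3′ end of each transcript, so counts were not divided by gene length, and levels of different genes are placed side by side only as an approximate order. Erythroid markers summed to between 900 and 1025 CPM in the DMSO libraries and between 1019 and 1090 CPM in the EZH2i libraries. Defining markers of plasmacytoid dendritic cells, the body's main interferon producers, were at 0 in the DMSO libraries and at most 0.143 CPM in the EZH2i libraries, and *CD14*, *MS4A1* and *CD4* were near or at 0. *CD3D* was at 63.6 CPM in DMSO and 87.7 CPM in EZH2i, and *LYZ* at 13.9 and 21.2 CPM, while the other T cell and monocyte markers except *CD68* had means under 1 CPM in both groups. *COL1A1*, a fibroblast marker, was at 1.57 CPM in DMSO and 6.02 CPM in EZH2i, and these 3 genes passed the threshold in edgeR (adjusted p of 0.0309 for *CD3D*, 0.0426 for *LYZ* and 0.00424 for *COL1A1*). Summed over each list, T cell markers were at 58.5 to 70.9 CPM in DMSO and 83.1 to 100.4 CPM in EZH2i, B cell markers at 3.79 to 4.75 and 5.28 to 6.28 CPM, monocyte markers at 16.8 to 21.8 and 24.0 to 31.0 CPM, and fibroblast and epithelial markers at 74.9 to 84.8 and 68.6 to 72.9 CPM, in each case without overlap. The part of such markers in the results was not tested, and in bulk RNA a change in the share of cells that express a gene cannot be told apart from a change in its RNA per cell. The third EZH2i library had 12.7% of its listed reads outside genes, against 7.43% to 8.51% in the other 5.

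Of the 49 members, 31 had enough reads to be tested, 3 had some reads but fell under the filter of about 10 reads in 3 libraries (1.32 CPM), 5 had at most 3 reads in every library and 10 had no read at all. After EZH2 inhibition 5 members rose and 0 fell. A gene was called when its p, adjusted over all 12364 tested genes in edgeR's quasi-likelihood test, was under 0.05, and across all tested genes 4.26% were called, 3.34% higher and 0.922% lower. The 5 that rose were all stimulated genes: *PSMB9*, *IFITM3*, *OAS3*, *IFI16* and *USP18*. The count of 0 lower members in edgeR compares with 1 at an unadjusted p under 0.05 (*IFITM1*) and 0 in DESeq2. In either direction 10 members had such a p, beside 19.1% of all tested genes. *OAS3* and *USP18* passed the filter only through their EZH2i libraries, so their share of the tested members cannot be read as a rate. With a filter of at least 10 reads in every library, 2 of 29 members were called, *IFITM3* and *PSMB9*. DESeq2 called 3, *IFITM3*, *OAS3* and *PSMB9*. The number of members called was 2, 1 and 1 without DMSO library 1, 2 or 3, and 2, 3 and 4 without EZH2i library 1, 2 or 3, where the 4 include *IFI6* as a new call.

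**Figure D1:**
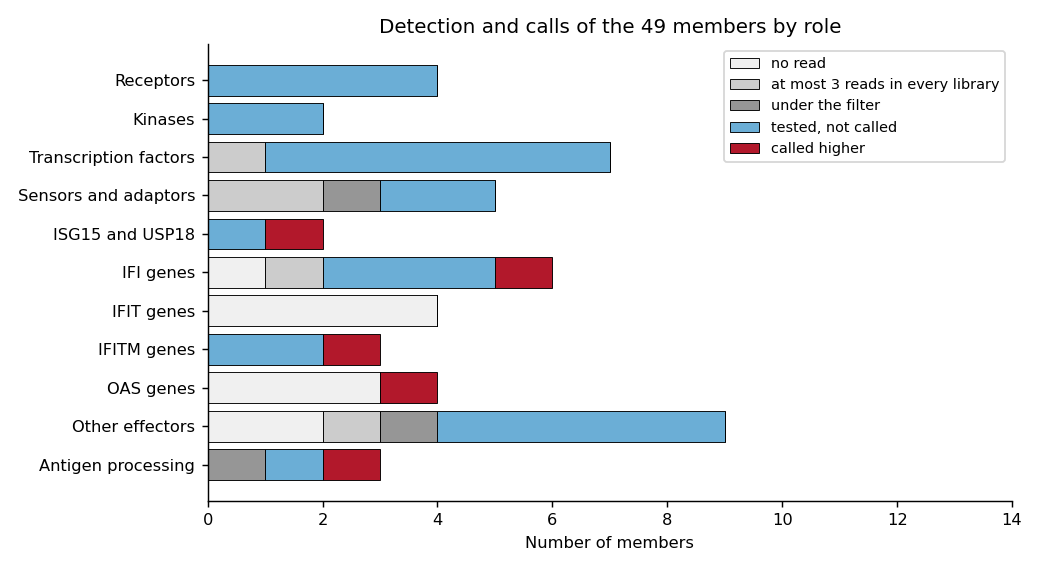
Horizontal bars give the number of members in each functional group, divided by how they were detected and called. Of the 49 members 10 had no read, the 4 IFIT genes among them, and the 5 red segments are the members that rose.

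The receptors and kinases were all transcribed, and none of the 6 was called. *IFNAR1* was at 95.8, 90.2 and 94.2 CPM in the DMSO libraries and at 74.0, 97.6 and 83.2 CPM in the EZH2i libraries, overlapping ranges with a log2 fold change of -0.14 (95% interval -0.37 to 0.10) that ran from -0.25 without EZH2i library 2 to -0.04 without EZH2i library 1. *IFNGR2* gave 48.7, 49.7 and 50.5 CPM in DMSO and 34.6, 46.3 and 48.2 CPM in EZH2i. All 3 EZH2i values of *IFNGR2* lay below the DMSO values, but the difference did not pass the test (log2 fold change -0.21, SE 0.13, adjusted p = 0.41), and the value became -0.07 without EZH2i library 1. The partner chains *IFNAR2* and *IFNGR1* were lower in level, at means of 24.0 and 9.93 CPM over all libraries.

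*JAK1*, the kinase shared by both receptor types, was at 113, 104 and 102 CPM in DMSO and at 115, 120 and 117 CPM in EZH2i. Its groups did not overlap, yet the log2 fold change was 0.14 with a 95% interval of -0.07 to 0.35 and an adjusted p of 0.458. Groups apart in the higher direction were found for 13.3% of all tested genes and in the lower direction for 11.2%. *TYK2*, the kinase that sits on IFNAR1, was at 73.6, 83.0 and 76.7 CPM in DMSO and at 75.3, 61.0 and 70.2 CPM in EZH2i, with overlapping ranges.

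Among the transcription factors, 6 of 7 were tested and 0 were called. *STAT2* was the signalling member with the smallest p: it was at 18.4, 16.9 and 20.1 CPM in DMSO and at 25.6, 21.0 and 23.0 CPM in EZH2i. Its EZH2i libraries all lay above its DMSO libraries, with a log2 fold change of 0.33 (SE 0.15, adjusted p = 0.231). Its partner *IRF9* was at 2.24 ± 0.366 CPM in DMSO and 3.25 ± 0.23 CPM in EZH2i (SD, n = 3), also without overlap. The interval of the *IRF9* log2 fold change ran from -0.14 to 1.18, so at 12 to 28 reads per library it held both no change and a log2 fold change of 1. *IRF3*, the factor that starts interferon transcription, had a log2 fold change of -0.00 and an interval of -0.27 to 0.26, and *IRF7*, which amplifies that response, stood at only 3.82 CPM in DMSO. *IRF8*, a factor of the myeloid lineage, had 1 read in all 6 libraries together.

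Of the 5 sensors and adaptors, only the adaptors *MAVS* and *STING1* had enough reads to be tested, and neither was called. *MAVS*, the mitochondrial adaptor of the RNA sensors, was the most abundant signalling member, at 130, 133 and 131 CPM in DMSO and 129, 111 and 123 CPM in EZH2i. All EZH2i values of *MAVS* lay below those in DMSO, and the log2 fold change of -0.12 (95% interval -0.33 to 0.09, adjusted p = 0.566) did not pass the test and became -0.06 without EZH2i library 2. *STING1*, the adaptor of the DNA sensor cGAS, was at 40.9 ± 1.68 CPM in DMSO and 47.4 ± 8.34 CPM in EZH2i, with overlapping groups. The sensors upstream of these adaptors were close to the limit of detection: *CGAS* had 3, 0 and 2 reads in the DMSO libraries and 0 in each EZH2i library, *TLR3* had 2 reads in all and *IFIH1* had 1 to 4 reads per library. Differences in these sensors were not detectable at this depth.

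Taking the 14 tested signalling members as a group, 0 were called in edgeR, 1 had an unadjusted p under 0.05 (*STAT2*) and 0 were called in DESeq2, beside 4.26% of all tested genes called and 19.1% with such a p. The groups were apart for 6 of the 14, 4 higher and 2 lower, beside 24.5% of all tested genes. Their log2 fold changes ran from -0.22 to 0.52 with a median of 0.08, beside a median of -0.00 over all tested genes. Leaving out each library moved the signalling median between 0.03, without EZH2i library 1, and 0.10, without DMSO library 2. For 13 of the 14, the 95% interval lay within a log2 fold change of 1 in either direction. The summed level of all 18 signalling members was 622, 616 and 609 CPM in the DMSO libraries and 617, 604 and 607 CPM in the EZH2i libraries, which overlapped.

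**Figure D2:**
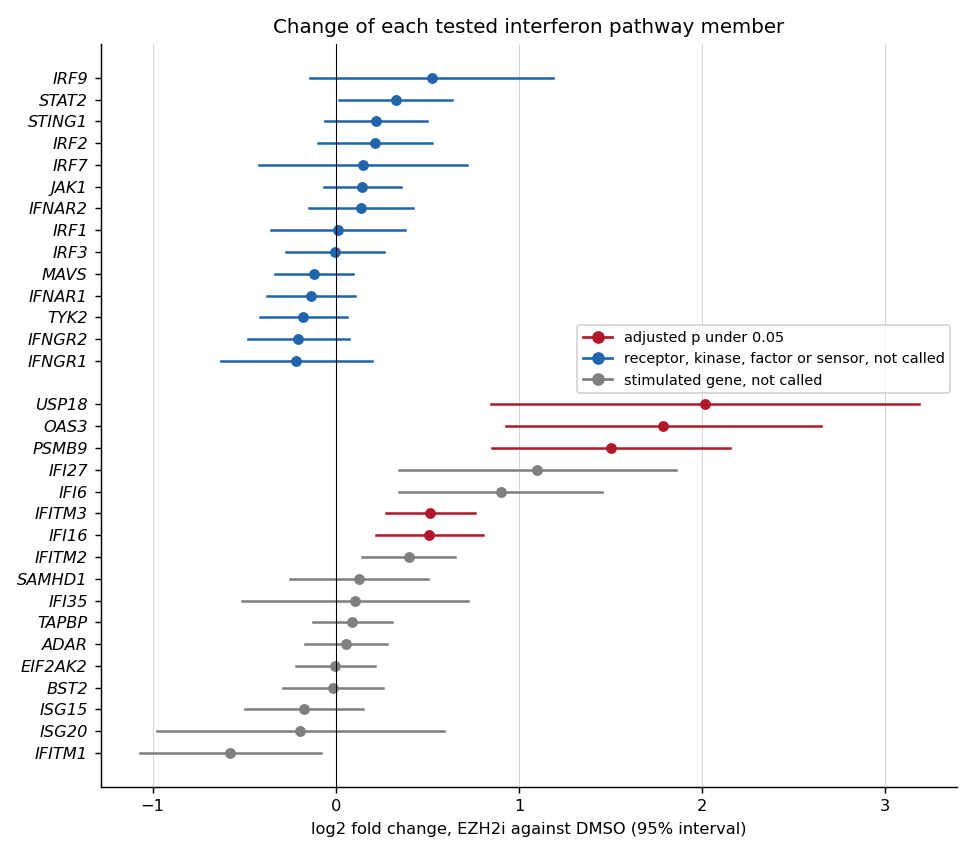
Points are log2 fold changes of EZH2i against DMSO for the 31 tested members and lines their 95% intervals from edgeR. Signalling members lie between -0.22 and 0.52 and none was called. The 17 tested stimulated genes lie between -0.58 and 2.02, and the 5 called among them (red) between 0.51 and 2.02.

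Among the stimulated genes, *PSMB9* (ENSG00000240065, chr6:32844136-32859851 in GRCh38) had the smallest adjusted p. It encodes a catalytic subunit of the immunoproteasome, which cuts proteins into peptides suited to MHC class I. *PSMB9* had 14, 14 and 13 reads in the DMSO libraries and 40, 36 and 35 in the EZH2i libraries, or 1.77 ± 0.37 CPM and 4.97 ± 0.437 CPM (SD, n = 3). Every EZH2i library lay above every DMSO library, and the fitted rise was 2.84-fold (log2 fold change 1.50, SE 0.31, adjusted p = 0.0109). The call was lost without DMSO library 2 or 3, at adjusted p of 0.0544 and 0.0607. Exons of *PSMB9* overlap those of *PSMB8-AS1* on the same strand and of *PSMB8* on the opposite strand, so reads in the shared stretches cannot be assigned to 1 gene with certainty. *PSMB8*, the neighbouring immunoproteasome subunit, had only 0, 1 and 0 reads in DMSO and 0, 5 and 2 reads in EZH2i and was not tested.

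*IFITM3* (ENSG00000142089, chr11:319676-329475 in GRCh38), a membrane protein that blocks virus entry from endosomes, had the largest rise in absolute level among the called members. It was at 93.9, 85.4 and 99.4 CPM in DMSO and at 153, 121 and 124 CPM in EZH2i. The groups did not overlap and the rise was 1.43-fold (log2 fold change 0.52, SE 0.11, adjusted p = 0.0169). The call was lost without DMSO library 1 or 2, at adjusted p of 0.0729 and 0.0975.

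The neighbouring genes *IFITM2* and *IFITM1* lie in the same cluster on chromosome 11 and encode close relatives. *IFITM2* was the most abundant of all members, at 384, 408 and 423 CPM in DMSO and at 646, 475 and 478 CPM in EZH2i. Its groups were apart too, but the log2 fold change of 0.40 (SE 0.12) had an adjusted p of 0.0705 and became 0.24 without EZH2i library 1. *IFITM1*, named after its values were seen, was at 75.8, 170 and 69.4 CPM in DMSO and at 66.0, 66.1 and 79.6 CPM in EZH2i. DMSO library 2 stood far above the other 5 libraries, the groups overlapped, and the log2 fold change of -0.58 (adjusted p = 0.182) became -0.04 without it. In that library *IFITM3* was at 0.502 times the reads of *IFITM1*, against 1.24 to 2.31 times in the other 5. The near-identical sequences of *IFITM2* and *IFITM3* can share reads, exons of *IFITM1* and *IFITM2* overlap an unnamed gene on the same strand, and 21.4% to 22.3% of the listed reads did not align uniquely and were not counted.

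*OAS3* (ENSG00000111331, chr12:112938051-112976460 in GRCh38) makes 2′-5′-linked oligoadenylates that activate the antiviral ribonuclease RNase L. It had 11, 8 and 7 reads in DMSO and 35, 19 and 32 reads in EZH2i, which corresponded to 1.15 ± 0.495 CPM and 3.89 ± 1.31 CPM. The lowest EZH2i library was above the highest DMSO library, with a log2 fold change of 1.79 (SE 0.41, adjusted p = 0.0198). The call was lost without DMSO library 2 or 3 or EZH2i library 1 or 3, where the adjusted p lay between 0.0529 and 0.0996. *OAS1* and *OAS2* flank *OAS3* on chromosome 12 and had no read in any library, nor had *OASL* elsewhere on that chromosome.

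*USP18* (ENSG00000184979, chr22:18150118-18177397 in GRCh38), which removes the ubiquitin-like protein ISG15 from its targets and restrains IFNAR2 signalling, had 2, 8 and 1 reads in DMSO and 15, 15 and 13 reads in EZH2i. These counts correspond to 0.457 ± 0.436 CPM and 1.92 ± 0.0904 CPM. The groups did not overlap and the log2 fold change was 2.02, with an SE of 0.55 and an adjusted p of 0.0475. It ran from 1.51 without DMSO library 3 to 3.18 without DMSO library 2. DESeq2 did not call it (adjusted p = 0.138), and it stayed called in 1 of 6 fits that left out a library. *ISG15* itself was at 18.1, 20.0 and 17.3 CPM in DMSO and 14.6, 18.0 and 16.6 CPM in EZH2i, overlapping ranges with a 95% interval of -0.49 to 0.15 for the log2 fold change.

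*IFI16* (ENSG00000163565, chr1:158999968-159055155 in GRCh38), a nuclear DNA sensor of the HIN-200 family, had 154, 216 and 177 reads in DMSO and 257, 275 and 208 reads in EZH2i. Scaled to CPM, it was at 24.0, 25.6 and 20.0 in DMSO and 34.7, 34.6 and 29.7 in EZH2i, a rise of 1.43-fold without overlap. The adjusted p was 0.0457 (log2 fold change 0.51, SE 0.14). DESeq2 gave an adjusted p of 0.0858, and the call stayed in 1 of 6 fits that left out a library.

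Among the other IFI genes, *IFI6* and *IFI27* had larger fold changes than *IFI16* but missed the threshold. *IFI6*, a mitochondrial and endoplasmic reticulum protein, was at 4.06, 4.03 and 3.28 CPM in DMSO and at 8.64, 7.29 and 5.14 CPM in EZH2i (log2 fold change 0.90, SE 0.26, adjusted p = 0.0631). Without EZH2i library 3, the lowest of its group, *IFI6* was called (adjusted p = 0.0339). *IFI27* was at 1.87, 2.01 and 1.36 CPM in DMSO and at 3.24, 2.77 and 5.28 CPM in EZH2i (log2 fold change 1.10, SE 0.36, adjusted p = 0.0937). For both genes every EZH2i library exceeded every DMSO library. *IFI35* had a log2 fold change of 0.10, which turned to -0.08 without DMSO library 3, *IFI44L* had 1 read in all and *IFI44* none.

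Several antiviral effectors were abundant in both groups and differed little. *ADAR*, the enzyme that edits adenosine to inosine in double-stranded RNA, was at 107, 105 and 107 CPM in DMSO and at 98.5, 111 and 121 CPM in EZH2i. *BST2*, which tethers budding virions, was at 89.9, 89.8 and 95.2 CPM in DMSO and 70.2, 105 and 96.3 CPM in EZH2i. *EIF2AK2*, the RNA-activated kinase PKR, was at 90.0 ± 5.12 CPM and 89.8 ± 1.76 CPM, and *TAPBP*, which helps load peptide on MHC class I, at 90.2, 98.8 and 90.8 CPM in DMSO and 105, 92.5 and 100.5 CPM in EZH2i. The groups overlapped for each of these 4 genes, and their 95% intervals lay between -0.29 and 0.31 on the log2 scale. *SAMHD1* and *ISG20*, a nucleotide hydrolase and an exonuclease, had log2 fold changes of 0.13 and -0.19, with intervals that included 0. That of *SAMHD1* turned to -0.10 without EZH2i library 1, and that of *ISG20* became -0.06 without DMSO library 1.

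**Figure D3:**
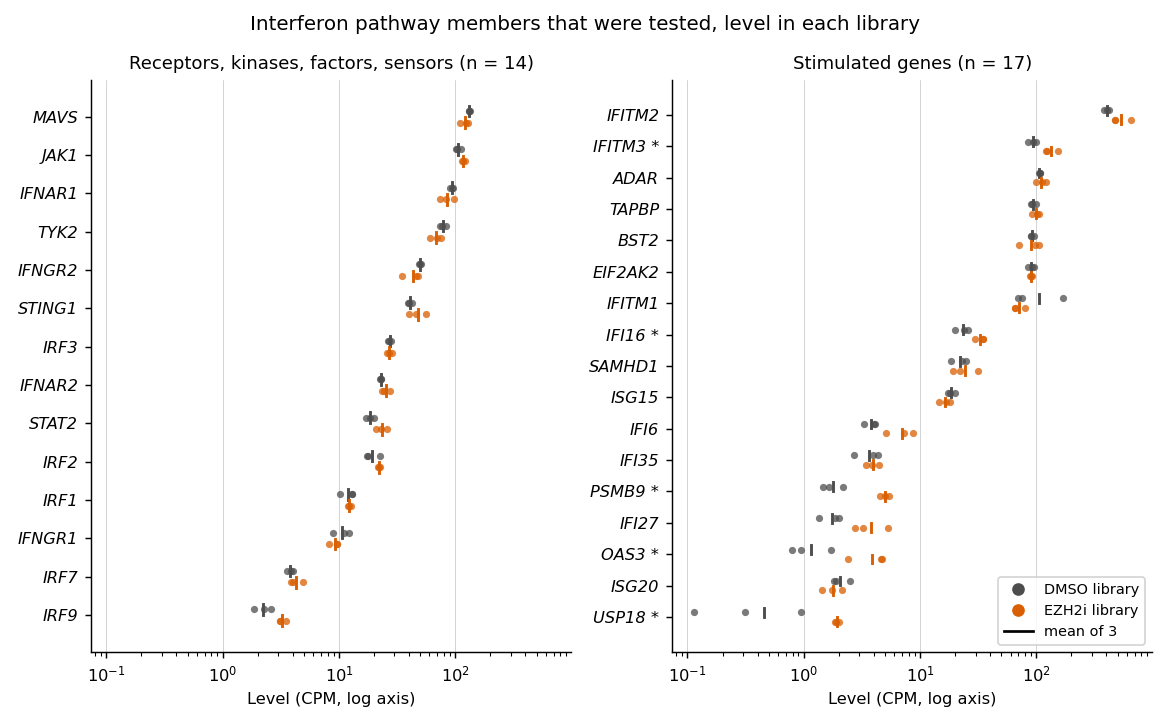
Each point is the level of a member in 1 library, in CPM on a log axis, with DMSO in grey, EZH2i in orange and a tick at the mean of 3; an asterisk marks an adjusted p under 0.05. *MAVS* and *IFITM2* lead their panels, and the groups lie apart for the 5 called members, 3 of which had a mean under 2 CPM in DMSO.

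Over the 31 stimulated genes the summed level was 1017, 1134 and 1037 CPM in the DMSO libraries and 1340, 1158 and 1184 CPM in the EZH2i libraries, without overlap. *IFITM2*, at means of 405 CPM in DMSO and 533 CPM in EZH2i, was the largest term of this sum. It also made up most of the difference between the groups, though it was not called. *IFITM3* was at means of 92.9 and 133 CPM and *IFITM1*, in the other direction, at 105 and 70.6 CPM. The sums therefore do not describe the class as a whole. The difference between the mean sums was 165 CPM, and 109 CPM without EZH2i library 1. Of the 17 tested, 12 had a log2 fold change above 0 and 5 below, with a median of 0.13, and 8 were apart in the higher direction and 0 in the lower, beside 13.3% and 11.2% of all tested genes. *OAS3* and *USP18*, which passed the filter only through their EZH2i libraries, are among these. The median ran from 0.07 without DMSO library 3 to 0.27 without EZH2i library 2, and was 0.23 without DMSO library 1 or 2. With no filter on low counts the median over 21 stimulated genes was 0.49, beside 0.04 over all genes in that fit. The genes this added were *IFI44L*, *MX2*, *PSMB8* and *TRIM22*, with 1, 2, 8 and 15 reads in all 6 libraries. *IFI44L* and *MX2* had reads only in EZH2i libraries, so this median cannot be read as a change of the class.

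The 10 members without a read were *IFIT1*, *IFIT2*, *IFIT3*, *IFIT5*, *OAS1*, *OAS2*, *OASL*, *MX1*, *IFI44* and *XAF1*, all classical interferon-stimulated genes. Over all 46139822 reads, a count of 0 allows up to 3 reads, or 0.0651 CPM, for counting error only. Exons of *IFIT2*, *IFIT3*, *MX1*, *OAS1* and *XAF1* overlap those of other genes, for *IFIT2* also on the same strand. Reads in shared stretches can go uncounted, and 2.25% to 2.48% of the listed reads were set aside as ambiguous. Among 19911 protein-coding genes, 25.2% had no read, so absence was common. *MX2* and *TRIM22*, which restrict retroviruses, had 2 reads in all and 0 to 4 reads per library, respectively. The 4 IFIT genes, whose proteins bind viral RNA, lie on chromosome 10 in a run of 8 protein-coding genes without a read (GRCh38, 88953813 to 89421605), together with *FAS*, *CH25H*, *LIPA* and *IFIT1B*. The run is bounded by *ACTA2* with 6 reads and *SLC16A12* with 2, and beyond these *PANK1* and *KIF20B* had 246 and 9959 reads. Across the genome 50 of 2747 such runs were at least 8 genes long, and the longest held 45. Whether this stretch is present in the genome of the clone was not tested.

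**Figure D4:**
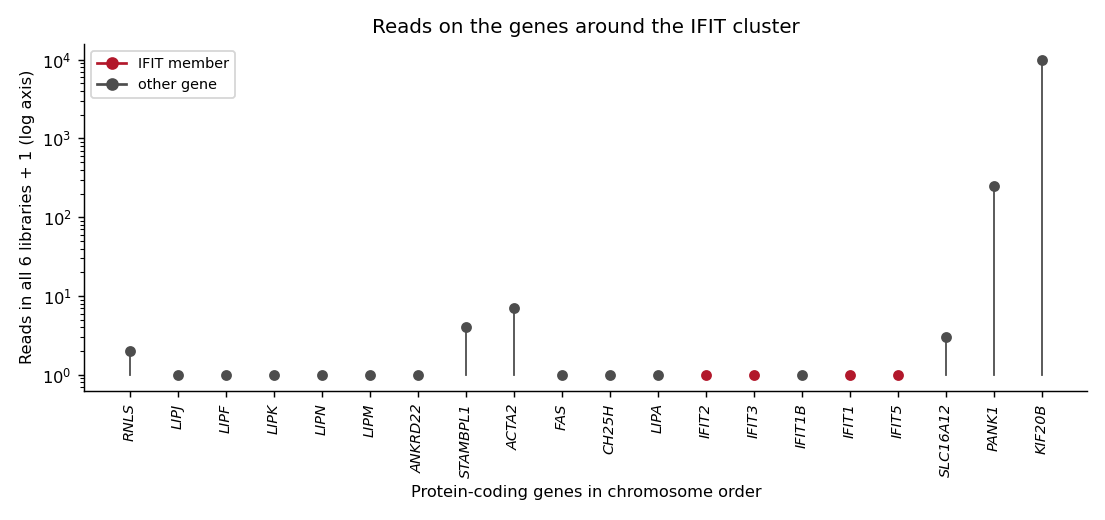
Protein-coding genes around the IFIT cluster are shown in chromosome order against their reads in all 6 libraries plus 1, on a log axis. The 4 IFIT members (red) and their nearest neighbours had no read, while *PANK1* and *KIF20B* to the right had 246 and 9959.

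Promoter sequence was compared with these levels, since the ISRE is the element that links the factors above to their targets. RefSeq promoters (GRCh38.p14, 250 bases before to 50 after the start) were found for 36 of the 49 members, and the ISRE core was searched on both strands as GAAA, any 2 bases and GAAA again (TTTC, any 2 bases and TTTC on the other strand). It was present in 16 of 24 stimulated genes (66.7%), in 2 of 12 signalling genes (16.7%) and in 3.65% of all 27305 promoters. Members with the motif were found at every level: 5 of 7 without a read (71.4%), 8 of 11 stimulated genes tested and not called (72.7%) and 2 of 4 called (*OAS3* and *IFITM3*). The promoters of *IFI16* and *PSMB9* held no match in this window. The GAS letters TTCNNNGAA, the same on both strands and free to overlap an ISRE match, were in 22.2% of the members' promoters and in 7.88% of all promoters. The stretches below show ISRE cores, in capitals, of called genes, of genes that were transcribed but not called and of genes without a read, each read in the direction of its gene.
OAS3 at chr12:112938321-112938350 (+), called: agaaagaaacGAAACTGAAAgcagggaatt
OAS3 at chr12:112938452-112938481 (+), called: agccgggcggGAAAACGAAAccagaaatcc
IFITM3 at chr11:320884-320913 (-), called: gGAAAAGGAAActgttgaGAAACCGAAAct
IFI6 at chr1:27672329-27672358 (-), not called: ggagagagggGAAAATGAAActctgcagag
IFI27 at chr14:94110625-94110654 (+), not called: cagTTTCGGTTTCctgGAAAATGAAAccta
ISG15 at chr1:1013377-1013406 (+), not called: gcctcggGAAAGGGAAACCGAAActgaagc
BST2 at chr19:17405738-17405767 (-), not called: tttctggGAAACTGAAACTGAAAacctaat
IFIT1 at chr10:89392504-89392533 (+), no read: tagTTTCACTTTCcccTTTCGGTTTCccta
IFIT3 at chr10:89327865-89327894 (+), no read: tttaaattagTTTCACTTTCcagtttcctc
MX1 at chr21:41420559-41420588 (+), no read: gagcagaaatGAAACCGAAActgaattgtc
Both *OAS3* stretches and that of *MX1* lie inside an annotated exon of their own gene, that of *BST2* inside exons of *BISPR* and *MVB12A* on the other strand, and the other 6 outside annotated exons in GENCODE v44. *IFITM3*, *IFI27*, *ISG15*, *BST2* and *IFIT1* each showed a pair of cores within 30 bases, and these genes ranged from no read (*IFIT1*) to 133 CPM (*IFITM3* in EZH2i). A match is a description of letters and was not tested as a binding site.

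Beyond the 49 members, 107 other genes of the pathway were listed, of which 57 were tested, 26 had no read, 13 had at most 3 reads in every library and 11 were under the filter. Of the 57, 3 rose (5.26%, beside 3.34% of all tested genes) and 0 fell, and the median log2 fold change was 0.07. Of the 3, *LGALS3BP* passed the filter only through its EZH2i libraries, so this share cannot be read as a rate. With at least 10 reads in every library, 2 of 55 were called. At an unadjusted p under 0.05 in edgeR, 9 were higher and 4 lower, beside 19.1% of all tested genes in either direction. DESeq2 called 2 higher and 1 lower (*WARS1*, log2 fold change -0.34 in edgeR). All 16 interferon genes themselves, *IFNB1*, *IFNG* and the listed alpha and lambda genes included, had no read in any library. *IFNB1*, *IFNW1*, *IFNE* and the alpha genes lie within a run of 25 protein-coding genes without a read on chromosome 9 (GRCh38, 20999509 to 25678444). The run lies between *FOCAD* with 15 reads and *CAAP1* with 1387, and it also holds genes outside the pathway, among them *MTAP*, *CDKN2A* and *CDKN2B*. Whether this stretch is present in the clone was not tested. Among 8 tested adaptors and relay genes, 8 tested negative regulators and 6 tested genes that limit nucleic acid, 0 were called in edgeR or DESeq2. Across these groups 2 had an unadjusted p under 0.05 in edgeR, beside 19.1% of all tested genes. Both were lower in EZH2i: *SOCS1* (log2 fold change -0.48) and *RNASEH2B* (-0.37).

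The 3 that rose were further stimulated genes. *GBP2*, a guanylate-binding protein that acts on intracellular pathogens, was at 56.0, 68.2 and 62.7 CPM in DMSO and at 120, 90.3 and 90.6 CPM in EZH2i. Its groups did not overlap (log2 fold change 0.69, SE 0.13, adjusted p = 0.00499), and it was called in all 11 alternative settings. *RSAD2*, which encodes viperin, was at 11.1, 11.2 and 11.7 CPM in DMSO and at 19.6, 17.1 and 17.7 CPM in EZH2i, again apart (log2 fold change 0.68, SE 0.16, adjusted p = 0.0213). *LGALS3BP*, a secreted galectin-binding protein, was at 1.25, 1.07 and 1.24 CPM in DMSO and at 3.51, 2.64 and 3.57 CPM in EZH2i (log2 fold change 1.44, SE 0.36, adjusted p = 0.0326), and it passed the filter only through its EZH2i libraries. The call of *LGALS3BP* was lost in DESeq2 and in 5 of 6 fits that left out a library. *RSAD2* lost its call without any 1 of the DMSO libraries.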

How the data were processed

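Gene counts of 6 QuantSeq 3′ FWD libraries were used as the authors deposited them: the sources name STAR 2.6.0c, HTSeq 0.11.2 and GRCh38 (hg38), and the strand setting of the counting is not given in the sources used here. Non-gene rows were left out, and genes held 63.6% to 67.9% of the listed reads. The authors' table of their own comparison (fold changes and p-values) was not used. Gene symbols and exons came from GENCODE v44. Differences between the groups were fitted on the counts in R 4.3.3 by edgeR, version 4.0.16 (filterByExpr with a minimum count of 10, TMM, quasi-likelihood test, two-sided, Benjamini-Hochberg over 12364 genes, threshold 0.05), a procedure tested on simulated data. DESeq2 1.42.0, other scalings, filters and thresholds, a replicate block and leaving out each library were alternatives. The members and lists were chosen with earlier results of these data known. Values per library are given for members that were called, for members with groups apart and an unadjusted p under 0.05, for the 5 most abundant of each class and for called genes of the pathway list; others are grouped or summarised, except *ISG15*, *IFITM1*, *CGAS* and *PSMB8*, which were added after their values were seen.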

Additional observations from a re-analysis of the deposited data

How the results depend on the processing

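The number of members called was 5 in the reported fit, 5 with RLE size factors, 3 with DESeq2, 8 with no filter on low counts, 2 with at least 10 reads in every library, 0 at adjusted p under 0.01 (where 10 had an unadjusted p under 0.05), and 1 to 4 when each library was left out. With no filter *IFI6*, *IFITM2* and, in the lower direction, *IFITM1* were added. The median of the stimulated genes was then 0.49, a value that includes genes near the floor such as *IFI44L*, with 1 read in all. All genes called numbered 527, against 928 with no filter, 148 at adjusted p under 0.01 and 209 to 536 when each library was left out. Other pathway genes called numbered 3, against 5 with no filter, 1 at adjusted p under 0.01 and 1 to 4 when each library was left out. The log2 fold changes of the 5 called members stayed above 0 in each alternative that gave a value, which for *OAS3* and *USP18* leaves out the filter of at least 10 reads in every library. Leaving out 1 library turned the sign of 7 members that were not called (*IRF1*, *IRF3*, *IFI35*, *EIF2AK2*, *ADAR*, *BST2* and *SAMHD1*). Same-numbered libraries did not deviate together (correlations of -0.0511, -0.0175 and -0.017), and with the replicate block 5 members, 3 other pathway genes and 599 genes in all were called. The cause of these shifts was not tested. Depth limits the genes with few reads: *USP18* had 1 to 8 and *OAS3* 7 to 11 reads in the DMSO libraries.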
